A study of Homo sapiens with 28 samples.

Results

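The 6 h auxin response of the degron line that carries an added full-length CTCF was examined in 4 of the 28 RNA-seq libraries of the series, those titled WT with and without IAA, with 2 libraries for each condition. The cells were SEM, a human line of B-cell precursor leukemia (ALL) with the MLL-AF4 fusion, in which the endogenous CTCF protein is fused to a degron and a fluorescent protein. All 4 libraries share these alterations: the tagged CTCF, a constitutive OsTIR1(F74G) from a lentiviral MND promoter, the older doxycycline-inducible OsTIR1, and a doxycycline-inducible, HA-tagged full-length CTCF. The 2 control libraries received no IAA and the other 2 received IAA, for which the methods name the analog 5-Ph-IAA, for 6 h. The deletion lines dZF1, dZF10 and dRBR, which carry a CTCF that lacks zinc finger 1, zinc finger 10 and the region for RNA binding, respectively, were treated in the same way and have 4 libraries each. In 8 other libraries, CTCF-AID2 cells without an added CTCF were kept in 5-Ph-IAA or without it for 24 h, and in 4 more, SEM cells labelled WT without a degron were kept in IAA or without it for 24 h, for which the protocol also names doxycycline. The methods add doxycycline to these lines to induce the added CTCF. The labels of the 6 h libraries name no doxycycline, so in which of them the added CTCF was produced is not given. If only the treated libraries received it, auxin, doxycycline and the added CTCF cannot be told apart in any 6 h change. The labels also do not say whether the 2 libraries of a condition came from separate cultures or how many clones make up the line. The p-values therefore measure only the spread between libraries, which may be technical.

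CTCF is a zinc finger protein that binds DNA at a conserved motif and stops the cohesin ring as it extrudes chromatin, which forms loops and insulates genes from enhancers beyond the loop. In the AID2 system a 5-phenyl form of auxin docks a degron-tagged protein onto the plant F-box protein OsTIR1, and the tagged protein is then ubiquitinated and destroyed by the proteasome. Early changes in mRNA after such a loss can be measured before cell divisions dilute the starting transcripts, and immediate early genes are genes known to be transcribed within minutes of a stimulus without new protein synthesis.

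Total counts were between 28.2 and 49.9 M in the 4 WT line libraries, with counts for 21653 to 22826 genes. Of these totals, 9.10 to 10.4% came from RN7SK and RN7SL genes without auxin and 9.61 to 10.1% with it. Of the 12 markers of the leukemia line, all but DNTT were above 1 CPM (counts per M of the library total), among them PAX5 at 666 and 607 CPM without auxin. All 8 erythroid markers were under 1 CPM, as were 8 of 12 T and NK cell markers, with CD3D, CD3G and CD8A at 0. Of the 12 myeloid markers, 7 were under 1 CPM, and their summed level was 72.3 to 74.9 CPM without auxin and 53.7 to 65.2 CPM with it. Stromal markers summed to 646 to 651 CPM without auxin and 886 to 906 CPM with it, with COL1A2, DCN and LUM at 0, and most of this was VIM, an intermediate filament gene of leukemia cells too. Whether other cells had a part in any result was not tested. In bulk RNA, fewer cells of a type and less RNA per cell cannot be told apart. Of the 16 libraries of the 6 h set, 1 treated dZF1 library stood apart, with 49.9 and -40.7 on the first and second principal components against 10.4 to 24.3 and 8.2 to 16.1 in the other 7 treated libraries.

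The first comparison asked which transcripts changed within 6 h of auxin in the WT line. Among 13902 genes tested, 87 were called higher, 0.626% of those tested, and 152 were called lower, 1.09%. IL9R, an interleukin receptor gene present on X and Y, is listed once for each copy among the falls. A gene was called when its adjusted p (limma, Benjamini-Hochberg) was at most 0.05 and it changed at least 2-fold, a log2 fold change of 1 in size. At the adjusted p alone, 897 genes rose (6.45%) and 1002 fell (7.21%). Fitted on the 4 WT line libraries alone, 3461 genes passed the adjusted p, against 1899 in the fit of all 16 libraries. A gene said not to pass may therefore pass in the smaller fit. The median log2 fold change was 1.3 over the called rises and -1.22 over the called falls, against -0.002 over all genes tested. The treated and untreated libraries did not overlap for any of the 239 calls, but this held for 65.3% of all genes tested. Called genes were scarcer than the typical gene, with a median untreated level of 1.27 CPM for rises and 2.19 CPM for falls against 23.3 CPM for all tested genes. Protein-coding genes made up 82.8% of the rises, 68.4% of the falls and 83.9% of the genes tested. Leaving out an untreated or treated replicate 2 gave 154 or 156 calls.

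CTCF itself, the gene whose product carries the degron, was measured first. CTCF mRNA (16: 67596370-67673080, hg19) was at 151 and 155 CPM without auxin and at 230 and 235 CPM with it. Both treated libraries were above both untreated ones, and the rise had a size of 0.60 ± 0.08 on the log2 scale (SE, limma adjusted p = 0.00087), less than 2-fold. The degron acts on protein, so loss of the protein cannot be read from this mRNA level, and reads from the added CTCF cannot be told apart from those of the endogenous gene in these counts. Untreated CTCF levels were alike in the plot of the 4 lines, from 148 to 165 CPM, and the treated levels were 201 to 301 CPM in the deletion lines. CTCF-AID2 cells, which have no added CTCF, were at 142.7 to 150.5 CPM untreated and at 251.1 to 258.1 CPM after 24 h of 5-Ph-IAA.

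**Figure D1:**
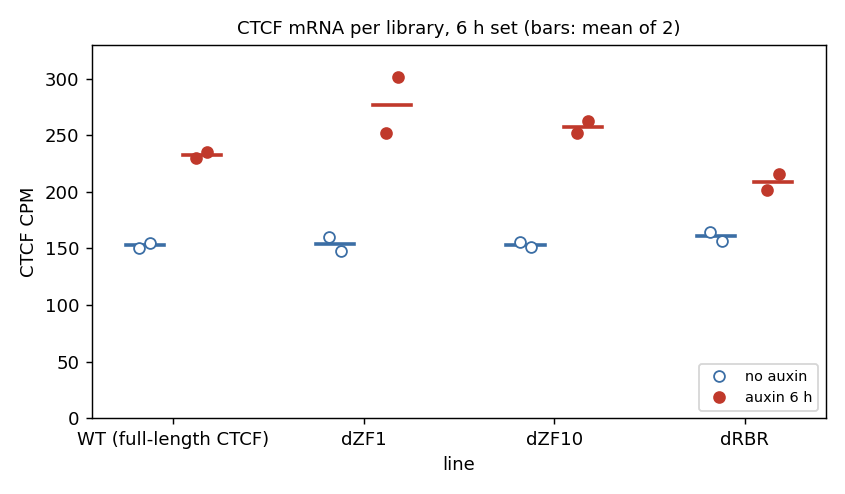
CTCF mRNA in CPM (vertical axis, from 0) in each library of the 4 lines of the 6 h set, with open points for no auxin, filled points for auxin and a bar for the mean of 2 libraries. The treated WT line libraries lie at 230 and 235 CPM, above the untreated ones at 151 and 155 CPM.

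Among the proteins that act with CTCF, STAG1, a subunit of the cohesin ring, was the other gene to rise. It was at 97.0 and 94.9 CPM without auxin and at 156 and 159 CPM with it (log2 fold change 0.71 ± 0.08 SE, limma adjusted p = 0.000253), and it overlaps PCCB on the opposite strand, so it is uncertain. RAD21, the subunit that closes the ring, was at 522 and 518 CPM without auxin and at 489 and 551 CPM with it (limma adjusted p = 0.98), and SMC1A, SMC3 and STAG2 had log2 fold changes of 0.01, -0.03 and 0.08. Over the 18 tested genes of this list, 2 rose and 0 fell, beside 6.45% and 7.21% of all genes. The list's median log2 fold change was 0.03. None of the 8 tested genes for cohesin loading, release and acetylation passed the test in either direction.

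Immediate early genes, which include those for AP-1, EGR and KLF transcription factors, were the list with the most rises. JUN (1: 59242517-59249720), a subunit of AP-1, was at 8.39 and 8.01 CPM without auxin and at 183 and 119 CPM with it, a rise of 4.16 ± 0.37 on the log2 scale (SE, limma adjusted p = 5.76e-05). Both treated libraries lay far above both untreated ones, though the treated pair differed from each other. EGR1 (5: 137801168-137804992), a zinc finger factor induced by growth signals, went from 13.4 and 13.3 CPM to 79.1 and 83.2 CPM (2.60 ± 0.39 SE). Its relatives were scarcer: EGR2 went from 0.319 and 0.134 CPM to 4.83 and 3.55 CPM, and EGR3 from 0.496 and 0.134 CPM to 3.15 and 2.60 CPM. The low untreated counts make the sizes of these EGR2 and EGR3 changes (4.18 ± 0.69 and 3.36 ± 0.57 on the log2 scale, SE) less precise than that of JUN. KLF2, a Krüppel-like factor that holds lymphocytes quiescent, was at 1.13 and 1.81 CPM without auxin and at 19.9 and 18.0 CPM with it (3.70 ± 0.42 SE). KLF6, another Krüppel-like factor, went from 39.4 and 41.9 CPM to 166 and 157 CPM (1.99 ± 0.29 SE).

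FOSB, an AP-1 subunit, was at 0.673 and 1.04 CPM without auxin and at 5.04 and 3.95 CPM with it (log2 fold change 2.36 ± 0.37 SE), and it lies antisense to ERCC1, so it is uncertain. ATF3, a stress-induced factor of the ATF family, went from 3.47 and 3.45 CPM to 20.2 and 13.4 CPM (2.22 ± 0.33 SE). IER2, of an immediate early family, went from 68.6 and 66.1 CPM to 191 and 163 CPM (1.39 ± 0.30 SE). Among feedback inhibitors of the ERK kinase pathway, DUSP6, an ERK phosphatase, went from 31.9 and 26.6 CPM to 75.7 and 68.2 CPM (1.3 ± 0.11 SE, limma adjusted p = 4.02e-05). SPRY4, a Sprouty inhibitor, was at 9.77 and 9.99 CPM without auxin and at 16.8 and 19.1 CPM with it (0.86 ± 0.13 SE). In all, 18 of 29 tested immediate early genes rose and 0 fell, beside 6.45% and 7.21% of all genes, and 11 of the rises were called. The list's median log2 fold change was 0.78. FOS, the best known AP-1 gene, did not pass, at 9.03 and 7.64 CPM without auxin and at 23.2 and 11.4 CPM with it (limma adjusted p = 0.241). FOSL2 and ZFP36, an mRNA decay factor, had log2 fold changes of -0.03 and -0.07.

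RHOB, a small GTPase that is itself a short-lived, stimulus-induced gene, was at 14.0 and 12.6 CPM without auxin and at 149 and 114 CPM with it (log2 fold change 3.29 ± 0.19 SE, limma adjusted p = 2.53e-06). PLEC, which encodes the cytoskeletal linker plectin, went from 37.3 and 32.7 CPM to 126 and 145 CPM (1.95 ± 0.24 SE). CUBN, a receptor for vitamin B12 uptake in gut and kidney, went from 2.05 and 2.75 CPM to 10.6 and 8.86 CPM (2.00 ± 0.20 SE). MIR22HG, a noncoding host transcript of a microRNA, went from 0.496 and 0.871 CPM to 3.75 and 2.67 CPM (2.19), overlaps WDR81 on the other strand and is uncertain. All of these rose in both treated libraries above both untreated ones.

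The other large rises were in genes that were close to silent without auxin. ZNF185 (X: 152066611-152142025), an actin-associated LIM domain protein, was at 0.708 and 0.871 CPM without auxin and at 10.8 and 11.9 CPM with it (log2 fold change 3.83 ± 0.22 SE, limma adjusted p = 2.53e-06). ENPP3, a cell surface nucleotidase, was at 0.142 and 0.302 CPM without auxin and at 1.32 and 1.10 CPM with it (2.41 ± 0.34 SE). PRAME (22), a cancer-testis antigen, had 1 count over the 2 untreated libraries and 59 over the 2 treated ones, a ratio of 41.2 after scaling by depth (95% counting interval 7.11 to 1650). WEE2-AS1 went from 0.354 and 0.268 CPM to 2.28 and 1.58 CPM (2.52) and lies antisense to SSBP1, so it is uncertain. FGFBP2, a secreted growth factor binding protein that the study discusses, was at 1.06 and 0.838 CPM without auxin and at 3.75 and 3.53 CPM with it (1.92 ± 0.29 SE). PROM1 overlaps FGFBP2 on the same strand, so FGFBP2 is uncertain. PROM1, the gene of the stem cell antigen CD133, was at 723 and 705 CPM without auxin and at 767 and 729 CPM with it. In total 38 of the 87 called rises had a mean under 1 CPM without auxin.

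**Figure D2:**
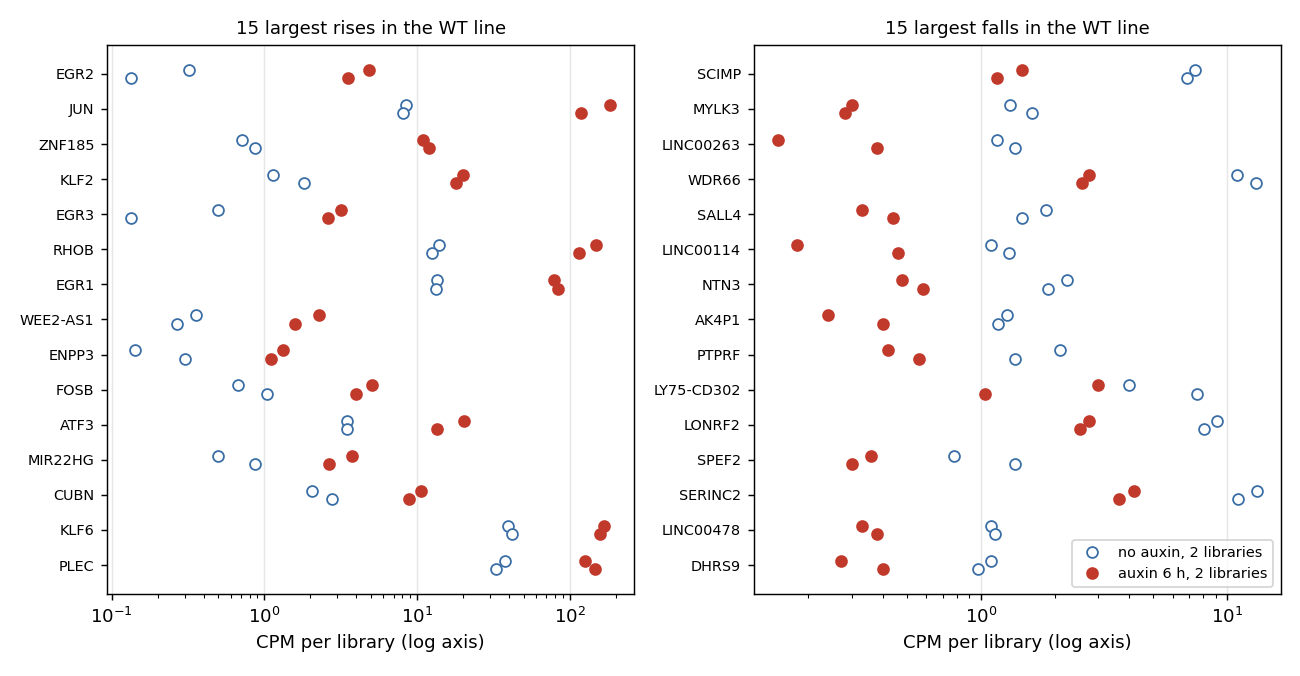
CPM in each of the 4 WT line libraries (horizontal log axes) for the 15 largest called rises and the 15 largest called falls with a mean of at least 1 CPM in the higher condition. Open points are the 2 untreated libraries and filled points the 2 treated ones; JUN goes from about 8 to 119 and 183 CPM, whereas LY75-CD302 shows treated values of 3.0 and 1.04 CPM close to its lower untreated value of 4.00 CPM.

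The falls were led by genes of low abundance. SCIMP, an adaptor protein of antigen-presenting cells, was at 7.36 and 6.87 CPM without auxin and at 1.47 and 1.16 CPM with it (log2 fold change -2.46 ± 0.18 SE, limma adjusted p = 1.34e-05), and it overlaps a noncoding gene on the other strand, so it is uncertain. WDR66, a cilium component now called CFAP251, went from 11 and 13.1 CPM to 2.76 and 2.58 CPM (-2.17 ± 0.15 SE), and it also overlaps another gene, RP11-87C12.2, on its own strand. MYLK3, the cardiac myosin light chain kinase, went from 1.31 and 1.61 CPM to 0.300 and 0.281 CPM (-2.29). LONRF2, a RING finger protein, went from 9.10 and 8.01 CPM to 2.76 and 2.52 CPM (-1.70 ± 0.20 SE). SERINC2, a membrane protein of the serine incorporator family, went from 13.1 and 11.1 CPM to 4.17 and 3.63 CPM (-1.65 ± 0.20 SE). SALL4, a stem cell zinc finger factor, went from 1.84 and 1.48 CPM to 0.330 and 0.441 CPM, and NTN3, a netrin, from 2.23 and 1.88 CPM to 0.480 and 0.581 CPM. PTPRF, a receptor phosphatase, DHRS9, a retinol dehydrogenase, and the noncoding LINC00263, LINC00114 and LINC00478 had log2 fold changes of -1.75, -1.58, -2.27, -1.93 and -1.62. AK4P1, a pseudogene of AK4 inside NF1, and LY75-CD302, a read-through of LY75 and CD302, share sequence with other genes and are uncertain (-1.90 and -1.75).

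B-lineage genes were the list with the most falls. IGLL1 (22), a surrogate light chain of the pre-B cell receptor, was at 48.8 and 48.7 CPM without auxin and at 17.5 and 15.3 CPM with it (log2 fold change -1.58 ± 0.11 SE, limma adjusted p = 1.07e-05). IL7R, the interleukin-7 receptor that early B cells need to grow, was at 180 and 186 CPM without auxin and at 91.7 and 85.4 CPM with it (-1.05 ± 0.08 SE, limma adjusted p = 1.34e-05). DNTT, which adds untemplated bases at antigen receptor joints, was at 0.637 and 0.771 CPM without auxin and at 0.0900 and 0.0802 CPM with it (-2.90 ± 0.39 SE). RAG2, a subunit of the V(D)J recombinase, went from 3.01 and 3.75 CPM to 1.71 and 1.26 CPM (-1.22 ± 0.20 SE), and its partner RAG1 fell by less than 2-fold (-0.74). RAG1 and RAG2 overlap on opposite strands, as do BLNK and ZNF518A, so these values are uncertain. IRF4 and IKZF2, both transcription factors, went from 112 and 113 CPM to 67.1 and 60.5 CPM and from 41.5 and 44.9 CPM to 22.4 and 21.0 CPM. BLNK, the adaptor downstream of the pre-B receptor, BACH2, a repressor of B cell differentiation, TNFRSF13C, the BAFF receptor, VPREB3 and TLR10, a Toll-like receptor, were also called lower, at -1.33, -1.12, -1.11, -1.02 and -1.36 on the log2 scale.

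Of the 39 tested B-lineage genes, 23 fell and 1 rose, beside 7.21% and 6.45% of all genes, and 9 of the falls were called. The list's median log2 fold change was -0.39. Among the surface and signaling genes 14 of 22 fell, and among the transcription factors 9 of 17 fell. The gene that rose was SPIB, an Ets family factor, from 32.0 and 29.7 CPM to 37.9 and 35.7 CPM (0.25). Genes that define the lineage did not all move. PAX5 was at 666 and 607 CPM without auxin and at 617 and 643 CPM with it. CD79A went from 130 and 126 CPM to 145 and 156 CPM without passing the test (limma adjusted p = 0.16), and MEF2C had a log2 fold change of -0.06. EBF1 fell from 208.6 and 213.9 CPM to 173.8 and 181.0 CPM (-0.25, limma adjusted p = 0.0152), and VPREB1 fell as well (-0.48). Both lost the adjusted p under some alternatives. Of the 12 markers of the leukemia line, 4 fell and 0 rose.

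MYC, the growth-promoting transcription factor, was at 305 and 296 CPM without auxin and at 136 and 144 CPM with it (log2 fold change -1.10 ± 0.07 SE, limma adjusted p = 6.6e-06). Both treated libraries lay below both untreated ones. Of the 45 tested members of the MYC network and its targets, 4 fell and 2 rose, beside 7.21% and 6.45% of all genes. TFAP4, a MYC target, and MXI1, a MYC antagonist, fell by 0.52 and 0.79 on the log2 scale. Of 22 genes of nucleolar function and ribosome biogenesis 1 fell, and their median log2 fold change was -0.07. MYB, another transcription factor of progenitor cells, which was called without being on a list, went from 172 and 176 CPM to 81.7 and 78.5 CPM (-1.12 ± 0.08 SE) and was chosen after its values were seen. The genes that the study discusses were picked on data of this series, so they are no independent evidence of a direction: of the 6, 2 rose and 2 fell. DDN, a postsynaptic protein gene that the study discusses, was at 18.3 and 18.2 CPM without auxin and at 9.90 and 9.02 CPM with it (-0.96 ± 0.10 SE), lies antisense to RP11-386G11.5 and is uncertain.

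**Figure D3:**
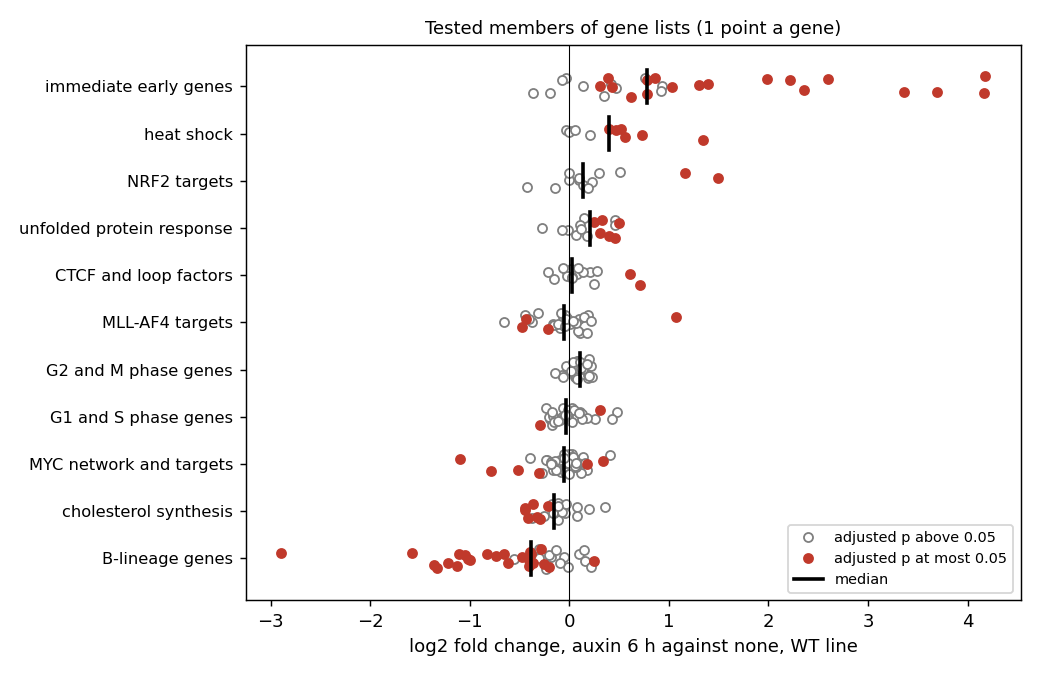
Log2 fold change at 6 h in the WT line (horizontal axis) of each tested member of 11 gene lists, filled where the adjusted p was at most 0.05, with a vertical bar at the list's median. The medians run from 0.78 for immediate early genes to -0.39 for B-lineage genes, and no G2 and M phase gene is filled.

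Among stress genes, TXN, the redox protein thioredoxin, was at 77.7 and 82.1 CPM without auxin and at 220 and 231 CPM with it (log2 fold change 1.5 ± 0.08 SE, limma adjusted p = 2.53e-06). NQO1, a quinone reductase, went from 15.8 and 14.9 CPM to 32.8 and 35.9 CPM (1.17 ± 0.19 SE). Those were the only 2 of the 13 tested NRF2 targets to rise, beside 6.45% of all genes. The list's median log2 fold change was 0.14. SLC7A11, the cystine transporter of that list, was at 44 and 46.2 CPM without auxin and at 31.5 and 35.6 CPM with it without passing (limma adjusted p = 0.0865). Of 5 tested genes of the aryl hydrocarbon receptor list 2 rose and 1 fell, beside 6.45% and 7.21% of all genes. The receptor gene AHR went from 5.88 and 5.90 CPM to 8.37 and 8.64 CPM (0.53, limma adjusted p = 0.049), the other rise was NQO1, and AHRR, the repressor that the aryl hydrocarbon receptor induces, fell from 9.31 and 8.61 CPM to 4.38 and 4.33 CPM (-1.04 ± 0.12 SE), and CYP1A1 and CYP1B1 were not among the genes tested. Of 11 tested heat shock genes 6 rose and 0 fell, beside the same shares of all genes, with a median of 0.40. HSPA1A went from 18.2 and 19.4 CPM to 49.5 and 46.1 CPM (1.34 ± 0.14 SE), HSPA1B from 65.7 and 60.4 CPM to 109 and 101 CPM (0.73 ± 0.08 SE) and HSPH1, a co-chaperone, from 192 and 192 CPM to 285 and 266 CPM (0.52 ± 0.06 SE). HSPA1A and HSPA1B are near-identical copies that share reads, so each alone is uncertain.

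The amino acid response genes ASNS and TRIB3, which the study discusses, did not pass the test, at 62.9 and 62.2 CPM against 63.1 and 66.8 CPM with auxin for ASNS and at 19.7 and 17.7 CPM against 19.2 and 20.1 CPM for TRIB3. DDIT3, a stress-induced C/EBP factor, rose from 14.3 and 13.7 CPM to 23.3 and 17.8 CPM (log2 fold change 0.53 ± 0.15 SE, limma adjusted p = 0.0388), and it overlaps MBD6 and MARS, so it is uncertain. PPP1R15A, a phosphatase subunit that ends the stress block on translation, went from 26.5 and 25.8 CPM to 67.4 and 53.6 CPM (1.19 ± 0.11 SE). Over the 35 tested genes of that list, 3 rose and 4 fell, with a median of -0.12. Of the 23 for synthesis and transport 0 rose and 2 fell. All genes tested rose in 6.45% of cases and fell in 7.21%, shares that stand beside each list count here. Of 16 unfolded protein response genes 6 rose and 0 fell, all by less than 2-fold, with PDIA4, a protein disulfide isomerase, from 119 and 116 CPM to 153 and 142 CPM. Of 23 cholesterol synthesis genes 7 fell and 0 rose, with INSIG1, the sterol sensor partner, from 191 and 190 CPM to 146 and 139 CPM.

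Cell cycle genes rarely passed the test. All genes tested rose in 6.45% of cases and fell in 7.21%, shares that stand beside each list count of this paragraph. None of the 27 tested G2 and M phase genes passed the test, with log2 fold changes from -0.15 to 0.23, and of 30 G1 and S phase genes RRM2, a ribonucleotide reductase subunit, rose (0.31) and RFC3, a clamp loader subunit, fell (-0.30). Of 14 p53 targets PLK3 rose, from 15.1 and 14.4 CPM to 21.6 and 19.5 CPM. Of 12 tested BCL2 family genes 4 rose and 2 fell. MCL1, a short-lived survival protein, rose from 234 and 228 CPM to 339 and 312 CPM (0.50), BAK1 and BCL2L1 rose (0.49 and 0.39), and BMF, a death activator, fell from 92.1 and 86.0 CPM to 65.0 and 63.1 CPM (-0.48). Of the 30 MLL-AF4 targets 1 rose and 3 fell: ZC3H12C, an RNA-degrading zinc finger protein, went from 119 and 130 CPM to 297 and 228 CPM (1.07, antisense to RDX and so uncertain), and KMT2A, RUNX1 and ZEB2 had log2 fold changes of -0.43, -0.47 and -0.21. Of the 98 named genes past the adjusted p in the WT line, 39 lost it under 1 or more alternatives, among them TRAF1 (8 alternatives), RUNX1, ZEB2 and PLK3 (7 each), AHR (6), KMT2A (4) and CD69 and NFKBIZ (3 each). The 9 tested HOXA cluster genes and partners had a median of 0.01 with 0 passing. Among other lists, LGR5, a receptor for R-spondins in Wnt signaling, rose from 0.956 and 0.737 CPM to 2.19 and 2.31 CPM (1.41), FZD1 and CTNNB1 rose by 0.49 and 0.25 on the log2 scale, and the remaining 11 of 14 tested Wnt genes did not pass. Of 15 NF-κB targets CD69, an early activation marker, and NFKBIZ rose, CD69 from 8.57 and 8.51 CPM to 36.6 and 21.3 CPM, and TRAF1 fell (-0.48). Of 18 interferon response genes 3 rose, and of 10 imprinted genes 3 fell, namely MEST, PEG10 and L3MBTL1, at -0.48, -0.38 and -0.74.

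Of the 49 clustered protocadherin genes, whose promoters CTCF is known to select, 12 were tested, all of the gamma cluster. PCDHGA7 and PCDHGA6 were called lower, beside 1.09% of all genes tested. PCDHGA7 went from 1.03 and 0.670 CPM to 0.150 and 0.381 CPM and PCDHGA6 from 1.59 and 1.84 CPM to 0.60 and 0.842 CPM. Gamma cluster genes share their last exons and overlap each other, so the split of reads between them is uncertain. None of the 13 mitochondrial mRNAs passed, though their median log2 fold change was -0.36 and their summed level was 4380 and 4900 CPM without auxin and 3330 and 4520 CPM with it. None of the 14 non-polyadenylated RNAs passed either. Of 5 tested genes on the myeloid list 2 fell and 0 rose, beside 7.21% and 6.45% of all genes. LYZ, the lysozyme gene, fell from 8.99 and 9.59 CPM to 3.33 and 3.49 CPM (-1.44), and CSF1R fell as well (-0.65). ITGAM leaned the other way without passing (0.37), and CD33 did not pass either (-0.31). On the stromal list, with 3 genes tested, VIM rose from 550 and 551 CPM to 807 and 829 CPM (0.57). PDGFRB leaned the other way without passing (-0.34).

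A few called genes lay close to each other. With gene positions from the hg19 annotation, 7 pairs of called genes lay within 50 kb of each other, and both members fell in all 7. The 7 pairs hold 13 calls, so they are not all separate. Falls made up 152 of the 239 calls, and how often other neighboring genes move alike was not tested. SPEF2, a sperm flagellar protein gene, IL7R and CAPSL lie side by side on chromosome 5, and SPEF2 went from 0.779 and 1.37 CPM to 0.360 and 0.301 CPM, CAPSL from 0.673 and 1.04 CPM to 0.180 and 0.160 CPM. BLNK and DNTT lie 32.8 kb apart on chromosome 10. LCN6 and LCN8, lipocalin genes, lie 5.86 kb apart on chromosome 9, and SPATA25 and NEURL2 lie 1.0 kb apart on chromosome 20. PCDHGA6 and PCDHGA7 overlap, as do 2 noncoding clone genes on chromosome 2.

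Promoter sequences were searched because CTCF also binds at gene starts and because immediate early promoters are known for serum response and AP-1 sites. RefSeq windows of 300 bases (GRCh38.p14) were matched for 9017 of the tested genes, for 68 of the called rises and for 77 of the called falls. The core of the CTCF motif (CCA, 2 free bases, AG, 2 free bases and GGC) was found on either strand in 3 of the 68 rises (PRAME, MIR22HG and IL6R), 4.41%, and in 1 of the 77 falls (SPEF2), 1.3%, against 2.99% of tested genes and 2.49% of all 27305 windows. The CArG box of serum response factor was in 2 rises (EGR1 and FGFBP2), 2.94%, and in 0 falls, against 1.01% of tested genes and 1.29% of all windows. TGANTCA, searched as a loose form of the AP-1 site with any base in the middle, was in 7.35% of the rises and 6.49% of the falls. It was in 4.06% of tested genes and 7.76% of all windows. TGACGTCA, the cyclic AMP response element, was in 4.41% and 3.90% against 3.27% and 1.98%. GCGTGGGCG, bound by EGR factors, was in 0 of both against 1.32% and 0.784%. TGANTCA and TGACGTCA differ in length and never overlap. The windows of 4 genes are shown 5′ to 3′ on the gene's strand, with matches in capitals. EGR1 (chr5:138465229-138465528, plus strand) has 2 CArG boxes. ZNF185 (chrX:152914182-152914481, plus strand) has 1 match to TGANTCA, which reads TGAATCA. PRAME (chr22:22559216-22559515, minus strand) and SPEF2 (chr5:35617613-35617912, plus strand) have 1 match to the CTCF core each. The 4 genes are an immediate early gene, a pair of genes under 1 CPM without auxin that rose and a gene that fell beside IL7R. A match is a description of the letters in the window.
EGR1: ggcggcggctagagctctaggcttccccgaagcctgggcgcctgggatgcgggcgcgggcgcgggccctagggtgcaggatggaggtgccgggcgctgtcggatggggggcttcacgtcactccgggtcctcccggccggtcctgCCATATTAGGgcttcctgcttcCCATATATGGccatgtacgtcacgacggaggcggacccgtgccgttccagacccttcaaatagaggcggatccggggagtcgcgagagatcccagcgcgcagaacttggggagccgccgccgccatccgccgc
ZNF185: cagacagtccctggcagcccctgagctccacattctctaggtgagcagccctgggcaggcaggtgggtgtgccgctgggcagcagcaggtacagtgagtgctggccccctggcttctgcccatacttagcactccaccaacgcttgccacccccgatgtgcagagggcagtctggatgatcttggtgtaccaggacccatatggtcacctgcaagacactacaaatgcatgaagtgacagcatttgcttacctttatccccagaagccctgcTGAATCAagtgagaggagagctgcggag
PRAME: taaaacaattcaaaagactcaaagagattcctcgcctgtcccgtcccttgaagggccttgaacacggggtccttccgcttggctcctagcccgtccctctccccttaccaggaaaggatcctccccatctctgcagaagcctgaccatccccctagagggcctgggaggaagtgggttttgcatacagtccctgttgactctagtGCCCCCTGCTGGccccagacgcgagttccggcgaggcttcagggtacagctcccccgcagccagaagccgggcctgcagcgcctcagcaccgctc
SPEF2: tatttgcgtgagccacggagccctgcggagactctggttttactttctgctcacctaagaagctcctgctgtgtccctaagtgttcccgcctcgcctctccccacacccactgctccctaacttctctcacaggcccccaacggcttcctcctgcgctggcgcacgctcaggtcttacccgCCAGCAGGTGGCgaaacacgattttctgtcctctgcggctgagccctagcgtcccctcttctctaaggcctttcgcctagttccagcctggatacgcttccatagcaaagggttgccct

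The second question was whether lines with a partial CTCF responded to auxin as the full-length line did. The lines share no libraries. Of the 87 genes called higher in the WT line, 58 were also called higher in dZF1, 58 in dZF10 and 41 in dRBR, which is 66.7%, 66.7% and 47.1% of the WT line's rises and 35.6%, 53.7% and 64.1% of the rises of those lines. Called rises were 1.17%, 0.777% and 0.46% of the genes tested in the 3 lines. Of the 152 genes called lower, 63, 66 and 59 were also called lower in dZF1, dZF10 and dRBR (41.4%, 43.4% and 38.8% of the WT line's falls, and 24.0%, 46.8% and 62.1% of theirs), beside 1.89%, 1.01% and 0.683% of genes tested. No gene called in the WT line was called in the opposite direction in any deletion line. The median log2 fold change of the WT line's rises was 1.23 in dZF1, 1.21 in dZF10 and 1.01 in dRBR, and that of its falls was -0.89, -0.95 and -0.87, smaller in size than the 1.3 and -1.22 of the line in which they were selected. All 3 deletion lines called 33 of the rises and 34 of the falls, and 16 rises and 60 falls were called in none of them. In dZF1, dZF10 and dRBR, 83, 86 and 86 of the 87 rises had the same sign. So did 145, 148 and 147 of the 152 falls. How often all genes share a sign between lines was not counted.

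The values of the named genes in each line are given side by side. In the order WT line, dZF1, dZF10 and dRBR, JUN had log2 fold changes of 4.16, 3.69, 3.96 and 4.02, and RHOB 3.29, 2.91, 3.26 and 3.18. KLF2 stood at 3.70, 3.52, 3.67 and 3.46, and the median over the immediate early list was 0.78, 0.83, 0.81 and 0.77. SCIMP, first of the plotted falls, stood at -2.46, -1.89, -2.22 and -2.46. Some values lay further apart: PLEC had 1.95 in the WT line and 0.62 in dZF1, and SPEF2 had -1.65 in the WT line and 0.24 in dZF1. Neither was a called difference from dZF1. All dZF1 values here include the treated library that stood apart on the principal components. MYC stood at -1.10, -1.60, -1.19 and -1.0. The B-lineage median was -0.39 in the WT line against -0.21, -0.37 and -0.34, and the heat shock median 0.40 against -0.09, 0.12 and 0.07.

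**Figure D4:**
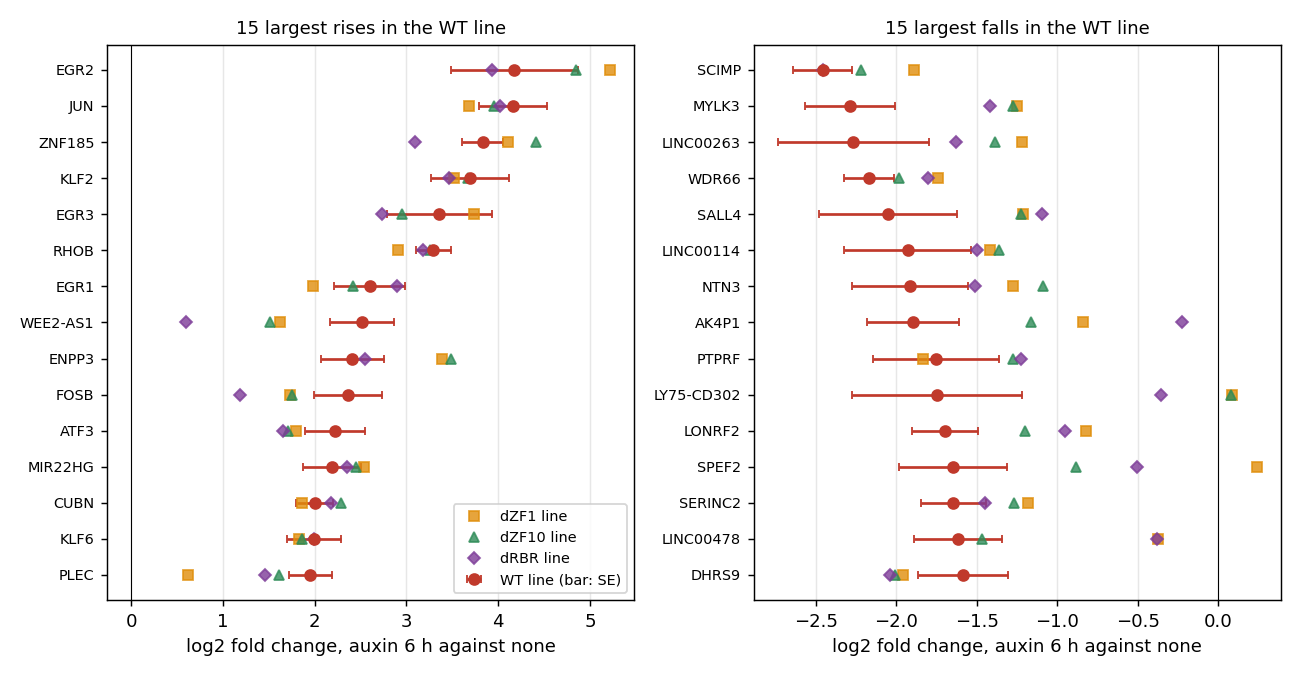
Log2 fold change with auxin at 6 h (horizontal axes) of the 15 largest called rises and falls of the WT line, with circles and SE bars for the WT line and squares, triangles and diamonds for dZF1, dZF10 and dRBR. The 15 rises lie above 0 in all 4 lines, and among the falls LY75-CD302 and SPEF2 lie above 0 in dZF1, LY75-CD302 also in dZF10.

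The difference between the lines' responses was tested for every gene. Against dZF10, 3 genes had a higher WT line effect (0.0216% of those tested) and 1 a lower one (0.00719%). OCRL (X: 128673826-128726538), the inositol polyphosphate phosphatase of Lowe syndrome, did not pass in the WT line, with 10.2 and 10.5 CPM without auxin and 9.51 and 9.56 CPM with it, while in dZF10 it went from 11.3 and 10.2 CPM to 1.04 and 1.35 CPM. The WT line effect minus that of dZF10 was 3.02 ± 0.18 on the log2 scale (SE, limma adjusted p = 1.89e-05), and OCRL was also the 1 gene called against the mean of the 3 deletion lines (0.00719% of genes, difference 1.09 ± 0.12 SE, limma adjusted p = 0.0165, with 0 called lower, 0.0%). OCRL had log2 fold changes of -0.12 in the WT line, -0.10 in dZF1 and -0.39 in dRBR against -3.14 in dZF10, and the call against the mean was lost without any 1 of the 4 WT line libraries, untreated dZF1 replicate 1, treated dZF10 replicate 1, untreated dRBR replicate 2 or either treated dRBR library. TLR10 (4: 38773859-38784611) fell in the WT line, from 6.23 and 5.76 CPM to 2.82 and 2.02 CPM, and further in dZF10, from 5.40 and 4.76 CPM to 0.357 and 0.364 CPM (difference 2.40 ± 0.29 SE, limma adjusted p = 0.0111). ZBTB39, a zinc finger gene, fell in the WT line from 34.4 and 33.1 CPM to 23.8 and 22.1 CPM and in dZF10 from 33.7 and 35.7 CPM to 8.59 and 9.47 CPM (difference 1.38 ± 0.11 SE, limma adjusted p = 0.000323). OCRL and ZBTB39 were called in each of 9 fits that left out 1 library in turn, and TLR10 in 6 of the 9 cases. The gene with the lower effect, RP11-35G9.3, a noncoding clone gene, rose in both lines, from 4.53 and 4.73 CPM to 6.96 and 6.95 CPM in the WT line and from 3.8 and 3.39 CPM to 12.3 and 12 CPM in dZF10 (difference -1.18 ± 0.15 SE), and was called in 2 of the 9 cases.

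Against dZF1, 0 genes (0.0%) had a called higher effect in the WT line and 6 a lower one (0.0432%). PRICKLE2, a planar polarity protein, was at 17.8 and 16.8 CPM without auxin and at 7.08 and 7.09 CPM with it in the WT line, but at 13.4 and 13.4 CPM against 13.3 and 10.6 CPM in dZF1 (difference -1.09 ± 0.18 SE, limma adjusted p = 0.0377). RORB, an orphan nuclear receptor, was at 24.8 and 23.1 CPM against 21.3 and 19.5 CPM in the WT line, without passing, and at 23.2 and 21.6 CPM against 38.5 and 41.9 CPM in dZF1 (difference -1.07 ± 0.12 SE). ERMN, an oligodendrocyte cytoskeletal protein, CHI3L2, a chitinase-like protein antisense to DENND2D and so uncertain, ERP27, an endoplasmic reticulum protein, and RASGRP1, a Ras activator of lymphocytes, had differences of -1.3, -1.14, -1.14 and -1.0. Without the treated dZF1 library that stood apart, 9 genes were called and 4 of the 6 were among them. The count depended on single libraries, with 0 calls when any 1 of the 4 WT line libraries or untreated dZF1 replicate 1 was left out, 2 without untreated dZF1 replicate 2 and 421 without treated dZF1 replicate 1. Of those 421, 307 were higher and 114 lower, in a fit where the library that stood apart was the only treated dZF1 library. At the adjusted p alone, the difference passed for 46 of the 13902 genes tested, the 6 called ones among them. Those below 2-fold included IL7R (-0.76, limma adjusted p = 0.0279) and HSPA1B (0.83, limma adjusted p = 0.0142). Passing the adjusted p also depended on single libraries. Without the treated dZF1 library that stood apart, the IL7R and HSPA1B differences were -0.69 and 0.77. Against dRBR, 0 genes were called in either direction by limma and by edgeR and DESeq2 alike. In limma, 350 of the 13902 genes tested had an unadjusted p under 0.05, a share that is itself below 0.05.

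The third comparison set the 6 h values beside those of CTCF-AID2 cells, without an added CTCF, kept in 5-Ph-IAA for 24 h. The libraries, the line and the time all differ, and the dose may too, since the 24 h titles give 1 µM, the protocol in the labels 10 µM, and the 6 h titles none, so the values are given together and not tested against each other. At 24 h, 264 genes were called higher (1.89% of 13973 tested) and 233 lower (1.67%). Of the WT line's calls at 6 h, 32 rises and 19 falls were called the same way at 24 h, which is 36.8% and 12.5% of the 6 h calls and 12.1% and 8.15% of the 24 h calls. The median 24 h log2 fold change was 0.77 over the 81 rises that were tested there and -0.30 over the 129 falls. Read from the other side, 226 of the rises at 24 h were tested at 6 h. Of these, 74 rose in the WT line and 7 fell at the adjusted p (median 0.41). Of 206 falls at 24 h, 50 fell and 2 rose (median -0.28). Over all genes tested at 6 h, 6.45% rose and 7.21% fell at the adjusted p. In SEM cells without the degron, IAA for 24 h called 67 genes higher (0.479%) and 87 lower (0.623%). Of the WT line's calls, 5 rises and 1 fall were called there in the same direction, and 4 rises and 3 falls in the opposite one. In the paper's methods these cells received natural auxin with doxycycline, at a higher dose than that of 5-Ph-IAA. Compound, dose, line and time therefore differ from the 6 h set.

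The rises ranged widely in their 24 h value. Among genes close to silent without auxin, PRAME had a 24 h log2 fold change of 7.10, ZNF185 5.21 against 3.83 at 6 h, FGFBP2 4.76 against 1.92, ENPP3 4.38 against 2.41 and LGR5 2.93 against 1.41. Among immediate early genes the 24 h log2 fold changes put JUN at 0.33, RHOB at 0.11, ATF3 at 0.03, KLF6 at 0.24 and IER2 at 0.15, and the list's median was 0.20 against 0.78 at 6 h. KLF2 was at 1.06 and EGR1 at 0.73. Of stress genes, TXN was at 0.12, NQO1 at 0.10 and HSPA1A at -0.13 at 24 h, and the heat shock median was -0.20. CTCF was at 0.77 and STAG1 at 1.26.

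The falls also ranged from lower to higher at 24 h. IGLL1 had a 24 h log2 fold change of 0.09, IRF4 -0.05, IKZF2 -0.01 and RAG2 0.01. IL7R was at 0.19, MYB at 0.39, VPREB3 at 0.84, SERINC2 at 0.57 and ARID5B, a chromatin regulator of lymphoid leukemia, at 0.52, and all 5 of these 24 h values were rises. At the adjusted p, 29.2% of all genes rose and 29.5% fell at 24 h. Of the 129 falls, 63 fell and 23 rose there, and of the 81 rises, 60 rose and 2 fell. The B-lineage median was 0.14 at 24 h. TLR10 (-3.90), DDN (-2.48), SPEF2 (-2.37), CAPSL (-1.52), SCIMP (-1.39), SALL4 (-1.22) and WDR66 (-1.08) were lower at both times, as was MYC (-0.88), and OCRL, which did not pass in the WT line at 6 h, was at -2.94. Of the 45 members of the MYC list, 40 fell at 24 h, beside 29.5% of all genes, and 4 fell in the WT line at 6 h, beside 7.21%.

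**Figure D5:**
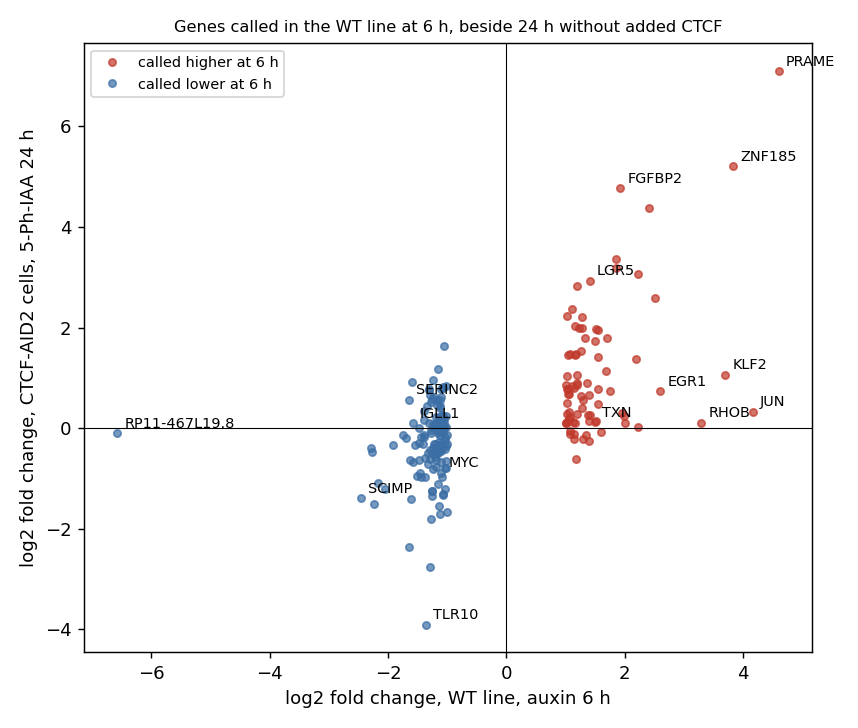
Log2 fold change in the WT line at 6 h (horizontal) against that in CTCF-AID2 cells at 24 h (vertical) for the 210 genes called at 6 h and tested at 24 h, 81 higher and 129 lower at 6 h. JUN and RHOB lie near 0 on the vertical axis and ZNF185 and PRAME at 5.21 and 7.10; the point at the far left, RP11-467L19.8, had 70 counts over the untreated libraries and 0 over the treated ones, so its fitted value of -6.57 depends on the prior count.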

How the data were processed

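Total RNA of SEM lines was sequenced, and the authors deposited RSEM expected counts per gene for each library. Their processing notes name Trim Galore 0.6.3, STAR 2.7.9a, RSEM 1.3.1, limma and hg19. The labels name a 3′ kit and the methods a total RNA kit with ribosomal RNA depletion, and whether counting used strand is not given in the sources used here. Expected counts were rounded to whole numbers, 92 spike-in entries without a count were left out, and genes above 1 CPM in at least 1 library were kept. The 16 libraries of the 6 h set were fitted together in limma 3.58.1 (voom, TMM factors from edgeR 4.0.16, R 4.3.3) with 1 mean for each group and 1 spread shared by all lines. The 12 libraries of 24 h were fitted separately. Calls needed both a Benjamini-Hochberg adjusted p up to 0.05 and a change of 1 or more on the log2 scale, and differences between lines were contrasts of the same fit. The code was tested on simulated data. CPM are scaled by the library's total, each SE comes from the fit with 2 libraries a group, and the interval of a ratio of counts covers counting error only. Positions are GRCh37 for 13495 tested genes matched by ID, and promoter windows are RefSeq.

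Named genes were the 15 largest called rises and falls with at least 1 CPM and no clone name, CTCF and the genes the study discusses, the 5 largest called differences between lines in each direction, the 4 members of each list with the smallest adjusted p, and the 6 largest in each direction called at both times. Other genes were named after their values were seen. The members and lists were chosen with earlier results of these data known. Alternatives were edgeR's quasi-likelihood test, DESeq2 1.42.0, other scaling, other filters, the replicate number as a block, the WT line alone, and each library left out.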

Additional observations from a re-analysis of the deposited data

Results flagged for a closer look

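The results listed here were marked because the test of the difference between the WT line's response and that of another line passed the threshold. For dZF10, OCRL (3.02 on the log2 scale), TLR10 (2.40) and ZBTB39 (1.38) had a higher WT line effect and RP11-35G9.3 (-1.18) a lower one. OCRL also differed from the mean of the deletion lines (1.09), among which dZF10 had -3.14, dZF1 -0.10 and dRBR -0.39. For dZF1, the differences were -1.30 for ERMN, -1.14 for CHI3L2, -1.14 for ERP27, -1.09 for PRICKLE2, -1.07 for RORB and -1.0 for RASGRP1. Of these 6, CHI3L2, ERMN, ERP27 and PRICKLE2 were also called without the treated dZF1 library that stood apart on the principal components, and RORB (-0.99) and RASGRP1 (-0.88) then fell short of 2-fold. Groups of 2 libraries are too small to test for a single outlying value.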

How the results depend on the processing

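The count of 239 calls in the WT line was 237 by edgeR and 228 by DESeq2, 239 and 238 under other scaling, 309 without a filter, 225 with a stricter filter and 254 from the WT line alone, which shared 229. Without 1 library it ranged from 154 to 264. It was 154 without WT line untreated replicate 2, 156 without treated replicate 2, and 264, with all 239 shared, without treated dZF1 replicate 2, an alternative chosen after seeing the data. The 6 differences from dZF1 became 21 by DESeq2 and 2 without a filter, and ranged from 0 to 421 when 1 library was left out, with 307 higher and 114 lower among the 421 against 0 and 6. The 4 differences from dZF10 became 6 by DESeq2 and 3 without a filter, and ranged from 2 to 4 when 1 library was left out, with 2 without treated dZF10 replicate 1 or 2 or WT line untreated replicate 2. The count against dRBR, 0, ranged from 0 to 1. The 1 difference from the mean became 2 by DESeq2 and 0 without a filter, and ranged from 0 to 1. Without a filter the 24 h counts became 1354 for CTCF-AID2 and 285 for WT SEM, against 497 and 154. Without a filter the median of all genes in the WT line moved to -0.128 on the log2 scale, as genes with very few counts entered. Whether the replicate numbers pair the samples is not given in the labels. To look for pairing, each gene's difference between replicates 1 and 2 was taken within a group, and these differences were correlated between groups. The correlations ran from -0.28 to 0.25 and passed 0.1 in 8 of 28 pairs of groups. The correlation was 0.15 for the untreated and treated WT line groups, which does not decide the question. With the replicate block, 236 genes were called in the WT line and 3 in the difference from dZF1. The causes of these shifts were not tested. Of 98 named genes past the adjusted p in the WT line, 59 stayed past it under every alternative run. Over all genes, 1899 passed the adjusted p in the fit of all 16 libraries and 3461 from the WT line alone. Whether a gene passed the adjusted p alone thus depended on the other lines in the fit. With 2 libraries a group and many called genes near 1 CPM, depth limits the precision of the folds of scarce genes.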
